A study of Mus musculus with 112 samples.

Results

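Subline 9 is 1 of 18 AKXD sublines, a panel of recombinant inbred mouse lines, whose crosses with mice carrying the polyoma middle T antigen transgene (PyMT) gave the mammary tumours of the study. Its 3 tumours were chosen by the sample titles alone, and each was hybridised to both array types, MOE430A (array A) and MOE430B (array B), which makes 6 of 112 arrays. The whole series holds 56 tumours, 3 from each of 16 sublines and 4 from each of the other two. The 3 tumours were compared with all other sublines after 4 arrays A and 3 arrays B that stood apart from the rest were left out, which kept 49 tumours of 16 sublines on array A and 50 tumours of 17 sublines on array B. All groups shared the transgene, driven by the MMTV promoter, and the labels name no treatment. The labels do not state which strain brought the transgene, the generation of the cross, or the mice's sex and age, and each tumour carries its own animal number.

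The AKXD lines were bred from the inbred strains AKR/J and DBA/2J, so each line is a fixed mosaic of these parental genomes, and lines that inherited the same parental segment at a locus share its alleles. Middle T antigen binds Src family kinases, phosphatidylinositol 3-kinase, Shc and protein phosphatase 2A, and drives multifocal adenocarcinomas of the mammary gland. A comparison of 1 subline with the rest asks which transcripts stood at another level in its tumours, all started by the same oncogene. Whether a difference came from the inherited alleles was not tested.

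With all arrays weighted equally, few probe sets set the tumours of subline 9 apart from those of the other sublines. On array A, 1 of 22626 probe sets passed the test (limma, 1 mean per subline, Benjamini-Hochberg adjusted p under 0.05, here "called"), which is 0.00442% of those tested, and it was lower in subline 9. On array B, 0 of 22511 probe sets passed limma's test (0%). With arrays weighted by their quality the same model called 648 probe sets of array A and 53 of array B, so these counts rest on equal weights. At an unadjusted limma p under 0.05, 652 probe sets were higher (2.88%) and 540 lower (2.39%) on array A, and 557 higher (2.47%) and 330 lower (1.47%) on array B, in all 5.27% and 3.94% of those tested. This split depended on the scaling: after each array was centred on its median, the numbers were 402 higher and 821 lower on array A. By the number of probe sets at that unadjusted p, subline 9 ranked 12 of 17 sublines on array A and 13 of 18 on array B, so most sublines differed from the others at more probe sets. The median absolute difference was 0.06 on array A and 0.05 on array B (log2), and a difference of more than 1 was found at 18 probe sets of array A and 1 of array B.

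**Figure D1:**
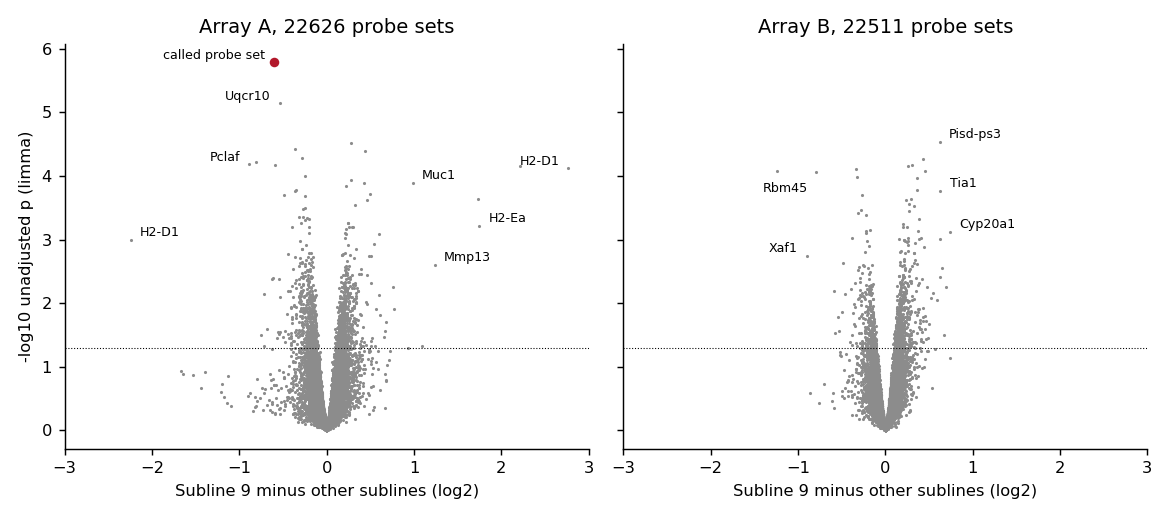
Difference of subline 9 from the mean of the other sublines (x axis, log2) against -log10 of the unadjusted limma p (y axis) for each probe set of array A (left, 22626) and array B (right, 22511). The red point is the 1 probe set with an adjusted p under 0.05, the dotted line marks an unadjusted p of 0.05, and named points other than the called probe set did not pass the adjusted threshold.

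All 3 tumours carried the markers of the labelled tissue. Epcam, Krt8, Krt18 and Cdh1, which mark luminal epithelium, lay between 10.6 and 13.2 (log2) in subline 9, while control probe sets for absent transcripts averaged 4.62 to 4.74 on the same arrays. The quality measures of the 6 arrays lay within the range of the other arrays. Profiles of the 3 tumours were close to each other: on array A the Pearson correlation across probe sets was 0.9955 between tumours 1 and 2, the highest of all pairs of tumours, and 0.9936 and 0.9938 for the other pairs, against a median of 0.9883 for pairs within the other sublines. The median SD within subline 9, 0.0889 (log2), was the lowest of the 17 sublines on array A, but on array B it was 0.1008 and ranked 8 of 18. On array B tumours 2 and 3 were the close pair (0.9947), while tumours 1 and 2 correlated at 0.9904 and tumours 1 and 3 at 0.9894, near the median of 0.9892 within the other sublines. Pairs of a subline 9 tumour with a tumour of another subline had medians of 0.9907 on array A and 0.9898 on array B. Both were above the medians within the other sublines, so the arrays of subline 9 were also close to those of other sublines. Because of the likeness of tumours 1 and 2 on array A, the comparison was repeated with their mean as 1 sample.

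The called probe set, 1419165_at, is not among the probe sets with a gene in the annotation used here and is therefore not named. It read 8.49, 8.36 and 8.48 (log2) in tumours 1, 2 and 3 of subline 9. The 49 other tumours ran from 8.60 to 9.45 with a median of 9.07. All 3 tumours were thus below every other tumour, and the groups did not overlap. The difference was -0.60 ± 0.11 (SE) with a limma adjusted p of 0.0372. The means of the other 16 sublines lay between 8.91 (subline 22) and 9.16 (subline 28), so subline 9 stood alone rather than at the end of a gradient. The probe set with the preceding number, 1419164_at, also without a gene name here, had a difference of -0.40 ± 0.11 and an adjusted p of 0.365. The call was not stable: its adjusted p was 0.648 with tumours 1 and 2 averaged as 1 sample, 1 with all arrays of the series, and 0.0527 with the replicate number as a block. It was 0.325, 0.877 and 0.676 without tumour 1, 2 or 3, and it also rose above the threshold without subline 3, 11, 14 or 28. The probe set did pass after quantile normalization (limma adjusted p = 0.00449) and with the other tumours pooled as 1 group (0.00417). Its difference lay between -0.65 and -0.52 in all runs, those that failed included.

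Only 3 other probe sets separated the 3 tumours of subline 9 from all others, so that the groups did not overlap at 2 probe sets of array A (0.00884%) and 2 of array B (0.00888%). Pef1, which encodes a calcium-binding penta-EF-hand protein, read 10.01, 10.03 and 10.01 in subline 9 (difference -0.25 ± 0.06, adjusted p = 0.224). The remaining pair, on array B, was dim. A probe set of Gpnmb, a transmembrane glycoprotein, read 4.53, 4.51 and 4.57, close to the absent-transcript controls of that array, and the gene's probe set on array A showed no such difference (0.11 ± 0.19). The unnamed probe set 1459953_at read 4.22, 4.29 and 4.19.

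Probe sets of H2-D1, a class I gene of the major histocompatibility complex whose product presents peptides to CD8+ T cells, gave the largest differences of either direction in subline 9. The H2-D1 probe set 1425614_x_at read 10.92, 10.58 and 11.73 in subline 9. The other tumours ran from 6.26 to 11.51 with a median of 6.88, and 40 of the 49 lay below all 3 tumours of subline 9. The difference was 2.77 ± 0.63 and its limma adjusted p, 0.156, did not pass, although it was 0.0157 without subline 2 and 0.0295 without subline 20. Probe sets 1452544_x_at and 1427651_x_at of the gene had differences of 2.21 ± 0.50 and 1.73 ± 0.43. A further H2-D1 probe set, 1450170_x_at, went the other way: it read 5.66, 5.80 and 5.80 in subline 9 against a median of 9.16 in the other tumours, with a difference of -2.24 ± 0.63 (adjusted p = 0.486). The brightest H2-D1 probe set, 1425545_x_at, read 13.35, 12.86 and 13.45, with a difference of 0.38 ± 0.20. Probe sets whose names end in x_at can take up RNA of related genes, and class I genes are near-identical copies, so these values cannot be assigned to H2-D1 alone.

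The H2-D1 probe set 1425614_x_at had 2 separate levels across the study. It read at least 9.64 in 24 tumours and at most 6.95 in the other 28, and all 3 tumours of subline 9 were at the high level. All tumours of sublines 13, 14, 16, 18 and 24 were at the high level too, with subline means from 10.33 to 10.56. The mean of subline 9, 11.07 ± 0.59 (SD, n = 3), was above these, but its tumours overlapped with theirs. Sublines 2, 20 and 27 held tumours of both levels, while the other sublines were at the low level throughout. Probe set 1450170_x_at divided the tumours into levels of 28 and 24 as well, high in the sublines where 1425614_x_at was low.

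H2-Ea, the alpha chain of the class II molecule I-E that presents peptides to CD4+ T cells, divided the sublines in nearly the same way. Its probe set 1422892_s_at read 9.88, 9.69 and 9.58 in subline 9, against 6.44 to 10.67 with a median of 7.10 in the other tumours. These values placed all 3 tumours at the high level, which was at least 9.14, with sublines 13, 16, 18 and 24. The difference of 1.75 ± 0.47 had an adjusted p of 0.365. The brighter probe set 1422891_at differed by 0.46 ± 0.11 (adjusted p = 0.231), and a dim probe set, 1426202_at, by 0.09 ± 0.06. H2-D1 and H2-Ea both belong to the major histocompatibility complex. Other class II genes differed less: H2-Ab1 by 0.29 ± 0.28, H2-Eb1 by 0.19 ± 0.27 and H2-Aa by 0.15 ± 0.30.

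**Figure D2:**
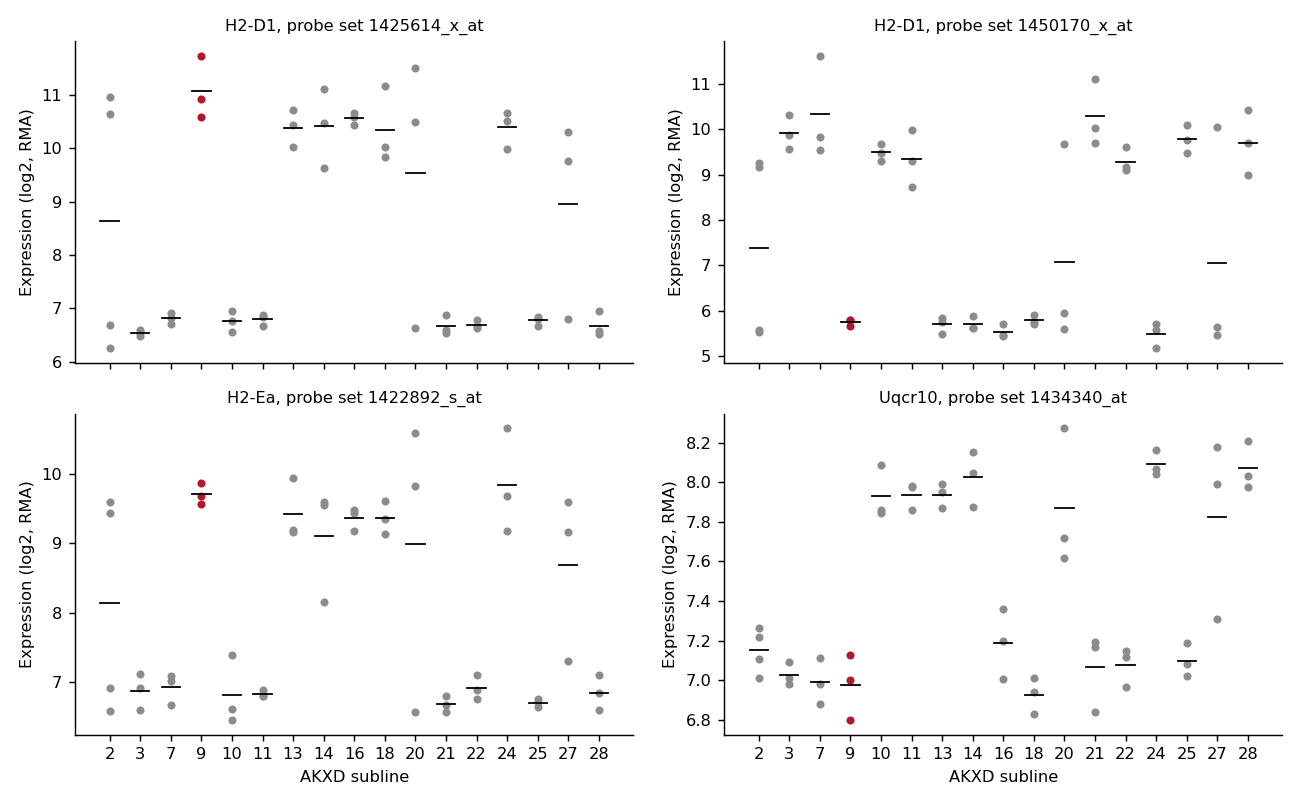
Expression (y axis, log2, RMA) of each kept tumour by AKXD subline (x axis) at 4 probe sets of array A, with subline 9 in red and a black line at each subline's mean. Subline 9 shares the high level of H2-D1 probe set 1425614_x_at with sublines 13, 14, 16, 18 and 24, has the low level of 1450170_x_at, and is at the low level of the Uqcr10 probe set.

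Probe sets with 2 levels, taken as those whose levels were separated by 5 pooled SDs or more and each held 5 tumours or more, numbered 65 on array A and 19 on array B. Whether such levels reflect the amount of RNA or sequence variants under the probes was not tested. The 3 tumours of subline 9 were all at the high level in 14 of the 65, all at the low level in 45, and divided in 6. On array B they were all high in 5 of the 19 and all low in 14. At 44 of the 65 and 12 of the 19, fewer than 10 tumours were on 1 of the levels. Most tumours of the study then lay on the other level, so these counts are not particular to subline 9. Among the probe sets with at least 10 tumours on each level, a limit chosen after the values were seen, there were 12 genes with 1 symbol, and subline 9 lay wholly on 1 level in all 12. It was high for Pdxdc1, H2-D1, Adi1, H2-Ea, Cap1, Zfp277, Tia1 and Pisd-ps3, and low for Paip1, Pdk1, Uqcr10 and Mtmr9. Sublines 13 and 22 shared its level throughout their tumours at 9 of these 12 genes, subline 14 at 8, and sublines 10 and 20 at 0. A subline with tumours on both levels does not count as sharing. Subline 20 held both levels at 34 of the 65 probe sets of array A, and subline 10 at 18, but these counts are not over the 12 genes. Subline 10 lay wholly on the level opposite to subline 9 at H2-D1, H2-Ea, Uqcr10 and Pdk1, and subline 20 did so at Uqcr10. The 12 genes are not all separate loci. Adi1 and Zfp277 lie on the same chromosome with the same sublines at the level of subline 9, and H2-D1 and H2-Ea belong to 1 complex. No other subline kept on array A had the level of subline 9 at all 12. How often other sublines stood alone in this way was not examined, so this is not shown to be particular to subline 9. The level of subline 9 was least often shared at Pdk1, with 3 other sublines wholly at it, and at H2-Ea and Pisd-ps3, with 4 each.

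Uqcr10, a small subunit of respiratory complex III, had the lowest adjusted p among named genes. Its probe set 1434340_at read 6.80, 7.13 and 7.00 in subline 9, against 6.83 to 8.27 with a median of 7.31 in the others. Subline 9 thus lay at the low end but overlapped with 17 of the other 49 tumours, all at the low level, which sublines 2, 3, 7, 16, 18, 21, 22 and 25 shared. The difference was -0.54 ± 0.10, with an adjusted p of 0.0816 that was 0.0173 after quantile normalization. It also passed without subline 2, 7, 16, 18, 20, 21 or 27, with adjusted p-values from 0.00708 to 0.0497. The other Uqcr10 probe sets, both brighter, differed by -0.10 ± 0.09 and -0.09 ± 0.06.

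Metap1d, Pdk1 and Rbm45, which the rule named for their size, were low in subline 9 and lie on the same chromosome. Metap1d, a mitochondrial methionine aminopeptidase, read 7.20, 7.00 and 7.19, against a median of 7.61 in the other tumours, 46 of which were above all 3 (difference -0.49 ± 0.12, adjusted p = 0.224). Its other probe set, which was dim, differed by -0.00 ± 0.05. Pdk1, the kinase that inactivates pyruvate dehydrogenase, read 8.70, 8.64 and 8.48 against a median of 9.21 (difference -0.42 ± 0.15, adjusted p = 0.771). On array B, the RNA-binding protein gene Rbm45 read 7.37, 7.10 and 7.15 against a median of 8.04, and 46 of 50 other tumours were above all 3 (difference -0.79 ± 0.18, adjusted p = 0.242). Subline 9 had the lowest mean of all sublines for Metap1d and Rbm45 and the second lowest for Pdk1, after subline 14. In the RefSeq annotation of GRCm38.p6, 3 protein-coding genes lie between Metap1d and Pdk1 and 35 between Pdk1 and Rbm45, and the genes between them were not examined. All 4 probe sets of Pdk1, on both arrays, were below the other sublines, by 0.20 to 0.69 on the log2 scale. Other sublines were low for these genes as well. Means for Metap1d, Pdk1 and Rbm45 were 7.31, 8.72 and 7.31 in subline 22 and 7.32, 8.47 and 7.51 in subline 14. They were 7.32, 8.72 and 7.56 in subline 28 and 7.29, 8.66 and 7.72 in subline 27. The Pdk1 values of subline 28 ran from 8.41 to 9.24. Subline 16 had the lowest Metap1d mean of the other sublines, 7.28, but a Pdk1 mean of 8.85.

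Nat8f2, an N-acetyltransferase family gene, read 6.70, 6.84 and 6.52 against a median of 5.99 in the other tumours, the highest mean of the 17 sublines (difference 0.60 ± 0.17, adjusted p = 0.414). Its other probe sets differed by 0.43 ± 0.10 and 0.27 ± 0.09. Tia1 encodes a stress granule protein that binds RNA, and its probe set 1431708_a_at on array B read 7.25, 6.95 and 7.05 against a median of 6.19 (difference 0.63 ± 0.15, adjusted p = 0.325). The other 5 Tia1 probe sets differed by between -0.25 and 0.07, so 1 of 6 probe sets carried the difference.

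Among genes without 2 levels by that criterion, Muc1 had a large difference. Muc1 is a transmembrane mucin of the apical surface of luminal epithelium. It read 10.37, 10.61 and 10.55 in subline 9, the highest mean of the 17 sublines, against 8.55 to 10.88 with a median of 9.40 elsewhere. Only 9 of the 49 other tumours reached the range of subline 9 or exceeded it. The difference was 0.99 ± 0.23 with a limma adjusted p of 0.192. Of the runs that left out another subline, it passed only without subline 2 (adjusted p = 0.0307). Subline 25 stood at 10.50 ± 0.10 (SD, n = 3), indistinguishable from the 10.51 ± 0.13 of subline 9. The other 11 luminal markers gave differences from -0.28 for Cldn4 to 0.26 for Ehf, and none passed the unadjusted threshold.

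**Figure D3:**
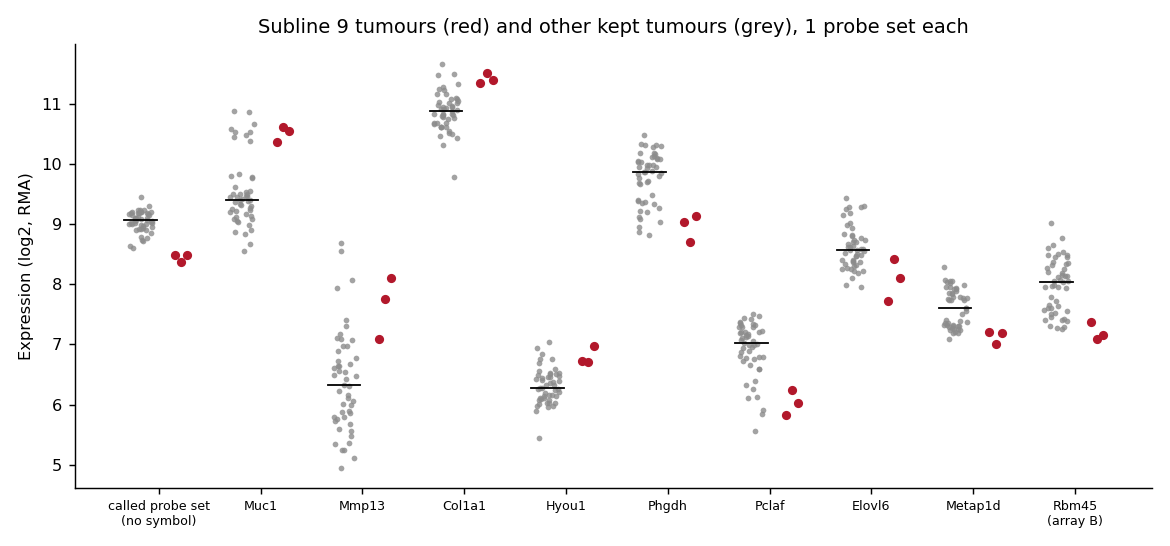
Expression (y axis, log2, RMA) in the 3 subline 9 tumours (red) and the other kept tumours (grey, black line at their median) for the called probe set and 9 named genes, 1 probe set each. Rbm45 comes from array B and the others from array A. Only the called probe set separates the groups completely, and in the other genes some grey points reach the red ones.

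Mmp13 and Col1a1 had large differences that did not pass the test. Mmp13, a collagenase, read 7.09, 7.76 and 8.10 in subline 9 against a median of 6.33 in the others, second to subline 21 (difference 1.24 ± 0.38, adjusted p = 0.704). Of the 12 metalloproteinases and their inhibitors, 11 were above 0 with a median difference of 0.09, and Mmp13 was the only one at an unadjusted p under 0.05. A Col1a1 probe set, 1455494_at, read 11.34, 11.50 and 11.40, the highest mean of the 17 sublines (difference 0.55 ± 0.16, adjusted p = 0.535). The brighter Col1a1 probe set differed by 0.32 ± 0.21. In the list of 12 fibroblast and matrix genes 10 were above 0, with a median difference of 0.17 and 0 at an unadjusted p under 0.05. Its score ranked 6 of 17 sublines, and all 3 tumours lay within the range of the others. Without tumour 3 that median was 0.29.

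Hyou1 and Bhlha15 were also named by size. Hyou1, a chaperone of the endoplasmic reticulum, read 6.72, 6.72 and 6.98 at probe set 1451913_a_at against a median of 6.28 (difference 0.49 ± 0.12, adjusted p = 0.224), and its other probe sets differed by 0.29 ± 0.11 and 0.17 ± 0.08. Bhlha15, a transcription factor of secretory cells, read 8.91, 8.50 and 8.52 against a median of 8.14 (difference 0.51 ± 0.15, adjusted p = 0.642), although its brighter probe set differed by 0.18 ± 0.17. Of 15 endoplasmic reticulum stress genes, Dnajb9 (0.31 ± 0.12), Xbp1 (0.16 ± 0.07) and Hyou1 were higher and Chac1 (-0.27 ± 0.09) lower at an unadjusted p under 0.05, and 0 passed the adjusted threshold. In the list 9 genes were above 0 and 6 below, with a median difference of 0.02, near the 0.01 of all probe sets on array A, and its score ranked 7 of 17 sublines. Without tumour 2 the median was -0.02 and 1 gene was at that p. After median centring 1 of the 3 higher genes stayed under an unadjusted p of 0.05.

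Ttc39b and Plekhb1 completed the genes at the high end on array A. Ttc39b, a tetratricopeptide repeat protein, read 8.18, 8.03 and 7.79 against a median of 7.44, and all 5 of its probe sets on both arrays had differences between 0.30 and 0.51. Plekhb1, a pleckstrin homology domain protein, read 10.85, 10.93 and 10.65 against a median of 10.19 (difference 0.61 ± 0.21). Their adjusted p-values were 0.765 and 0.775. On array B, Cyp20a1, an orphan cytochrome P450, read 7.19, 7.92 and 7.40 against a median of 6.79 (difference 0.74 ± 0.20, adjusted p = 0.579), but its other probe sets differed by 0.07 and -0.04. Myh10, a non-muscle myosin heavy chain, read 9.17, 9.45 and 9.96 (difference 0.69 ± 0.24), the predicted gene Gm13306 read 6.77, 6.55 and 7.62 (0.65 ± 0.21), and the pseudogene Pisd-ps3 read 8.15, 8.45 and 8.63 (0.62 ± 0.13, adjusted p = 0.242, and 0.0186 without subline 13). The other probe set of Myh10 differed by 0.00 ± 0.07, and the other 4 of Pisd-ps3 by 0.04 to 0.19.

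At the low end of array A, Pclaf and Phgdh followed. Pclaf encodes a factor that binds the replication clamp PCNA. Its probe set 1419152_at read 5.82, 6.24 and 6.02 in subline 9, against a median of 7.03 in the others, and 44 of 49 other tumours were above all 3 (difference -0.89 ± 0.20, adjusted p = 0.156). Its much brighter probe set 1419153_at differed by -0.11 ± 0.12. Phgdh, the first enzyme of serine synthesis from glycolytic intermediates, read 9.04, 8.71 and 9.14 at 1454714_x_at against a median of 9.87 (difference -0.81 ± 0.18, adjusted p = 0.156). Its other 3 probe sets differed by between -0.20 and -0.10. For both genes the difference was thus borne by 1 probe set. Pclaf passed without subline 24 (adjusted p = 0.0154) and Phgdh without subline 2 (adjusted p = 0.0404).

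Of 15 genes of hypoxia and glycolysis 14 were below 0, with a median difference of -0.26, while 55.1% of all probe sets on array A were above 0. That share includes dim probe sets, whereas the list took the brightest of each gene, so the 2 are not fully alike. Among the 18712 probe sets of array A with a mean of at least 6, 487 were higher and 496 lower at an unadjusted limma p under 0.05. With all probe sets of each gene the list median was -0.13. At an unadjusted p under 0.05 there were 4, all lower: Pdk1, Pgk1 (-0.39 ± 0.14), the phosphofructokinase Pfkp (-0.31 ± 0.11) and the glucose transporter Slc2a1 (-0.37 ± 0.16). Pgk1, a glycolytic kinase, read 11.94, 11.93 and 11.91 in subline 9, near the lowest of the other tumours (11.90), whose median was 12.29. Without tumour 3 the number at that p was 1, and without tumour 2 it was 3. All 15 respiratory chain genes were below 0, with a median of -0.10, and Cox5a (-0.23 ± 0.09) and Atp5b (-0.17 ± 0.08) had an unadjusted p under 0.05, against 1 gene without tumour 2 and 0 without tumour 3. Markers of other tissues were low beside these lists, with 11 of 11 skeletal muscle genes (median -0.80) and 8 of 9 adipocyte genes (median -0.19) below 0. Tumour 3 was the lowest of the 3 in the muscle and adipocyte scores and in the respiratory chain score (-0.14, against -0.09 and -0.08). With the scores of these and of lymphoid cells as covariates, 12 of 14 hypoxia and glycolysis genes of array A were below 0 (median -0.23, 4 at an unadjusted p under 0.05), as were 15 of 15 respiratory chain genes (median -0.06, 0 at that p). At the 1 probe set used per gene, none of the hypoxia and glycolysis or respiratory chain genes passed, with limma adjusted p-values from 0.771 upward. For Uqcr10 that probe set was not 1434340_at, whose limma adjusted p was 0.0816. With array quality weights 3 hypoxia and glycolysis genes and 2 respiratory chain genes were called lower.

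Of the lipid synthesis genes, Elovl6, which elongates long-chain fatty acids, read 7.72, 8.42 and 8.10 at probe set 1417403_at against a median of 8.57, the lowest mean of the 17 sublines (difference -0.54 ± 0.18, adjusted p = 0.75), and its brighter probe set differed by -0.40 ± 0.17. Of 12 fatty acid synthesis genes, 4 were above 0 and 8 below, with a median of -0.10, which was -0.04 without tumour 3. The list score was -0.24 in tumour 3, against -0.08 and 0.04, and the adipocyte score was lowest in the same tumour (-0.90, against -0.02 and 0.42). With composition scores as covariates 6 genes were above 0 and 6 below. Elovl6 and the desaturase Fads1 (-0.35 ± 0.16) were at an unadjusted p under 0.05. Of 13 sterol synthesis genes 12 were below 0, with a median of -0.17, and Lss (-0.21 ± 0.10) was the one at that p, with 0 without tumour 2 or tumour 3. Of 17 cell cycle genes 16 were below 0 with a median of -0.11 and 0 at that p. Without tumour 2 the median was -0.06 with 14 below, and without tumour 1 it was -0.17 with 1 gene at that p.

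Other genes below the mean of the other sublines were named by size. Kctd14 read 7.24, 7.26 and 7.75 at 1426633_s_at (difference -0.72 ± 0.25), where subline 9 ranked 11 of 17 from the highest and 8 other tumours lay below all 3. Its other array A probe set, 1426632_at, differed by -0.44 ± 0.20. The array B probe sets of Kctd14 differed by 0.24 ± 0.28 and 0.46 ± 0.21, the other way. Erdr1 read 11.42, 11.30 and 11.59 (-0.61 ± 0.20), while its array B probe set differed by -0.04 ± 0.08. AI506816, a gene without an assigned function, read 8.93, 8.90 and 9.06 (-0.59 ± 0.13, adjusted p = 0.156, and 0.0157 without subline 2). On array B the E3 ubiquitin ligase gene Marchf3 (-0.58 ± 0.20), Card6 (-0.38 ± 0.11) and the tRNA-modifying enzyme gene Thg1l (-0.35 ± 0.12) had adjusted p-values of 1, 0.579 and 1. The other probe sets of Marchf3 differed by -0.39 ± 0.14 and -0.04 ± 0.13, and that of Thg1l by 0.06 ± 0.06.

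Interferon-stimulated genes differed among themselves. Xaf1, an interferon-induced partner of XIAP, read 7.87, 7.72 and 8.04 at probe set 1443621_at of array B against 7.61 to 10.74 with a median of 8.79 in the others (difference -0.90 ± 0.27, adjusted p = 0.759). Its other probe set on that array differed by 0.49 ± 0.23. Of 14 interferon-stimulated genes 12 were above 0, with a median difference of 0.36, and Xaf1 was the only one at an unadjusted p under 0.05. Ifit1, for example, read 9.77, 9.37 and 10.17 against 7.41 to 11.01 elsewhere, well within the spread (0.68 ± 0.48). In the list of class I and antigen processing genes 9 of 10 were above 0, with a median of 0.23 and 0 at that p, and without tumour 3 the median was 0.06. With all probe sets of each gene it was 0.11.

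Markers of some other cell types varied widely among the 3 tumours. All 11 skeletal muscle genes were below 0, with a median difference of -0.80, but this was tumour 3: the list score (each gene's log2 value less its mean over tumours, averaged over the list) was 0.08, 0.65 and -2.91 in tumours 1, 2 and 3, against -2.88 to 2.78 in the other tumours. Acta1, skeletal actin, read 11.81, 12.30 and 6.25. Without tumour 3 the median was 0.27, and 10 of the 11 genes were above 0. Tumour 3 was also lowest of the 3 for adipocyte genes (-0.90, against -0.02 and 0.42) and for milk protein genes (-0.97, against -0.16 and -0.37). Bulk tissue cannot tell fewer cells of a type from less RNA per cell. All 11 macrophage genes were above 0, with a median of 0.10, and 10 of the 11 were after median centring. Without tumour 1 only 3 of the 11 were above 0. The medians of T cell (0.04), B and plasma cell (-0.07), endothelial (0.04) and neutrophil (-0.02) genes were near 0. All 6 salivary gland genes were below 0, with a median of -0.33 and 0 at an unadjusted p under 0.05, and the scores of the 3 tumours, -0.46, -0.25 and -0.22, lay within the range of the others, which reached 4.54. With the scores of skeletal muscle, adipocytes, B lineage cells and T cells as covariates, all 34 named probe sets of array A kept their direction and their side of the adjusted threshold.

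**Figure D4:**
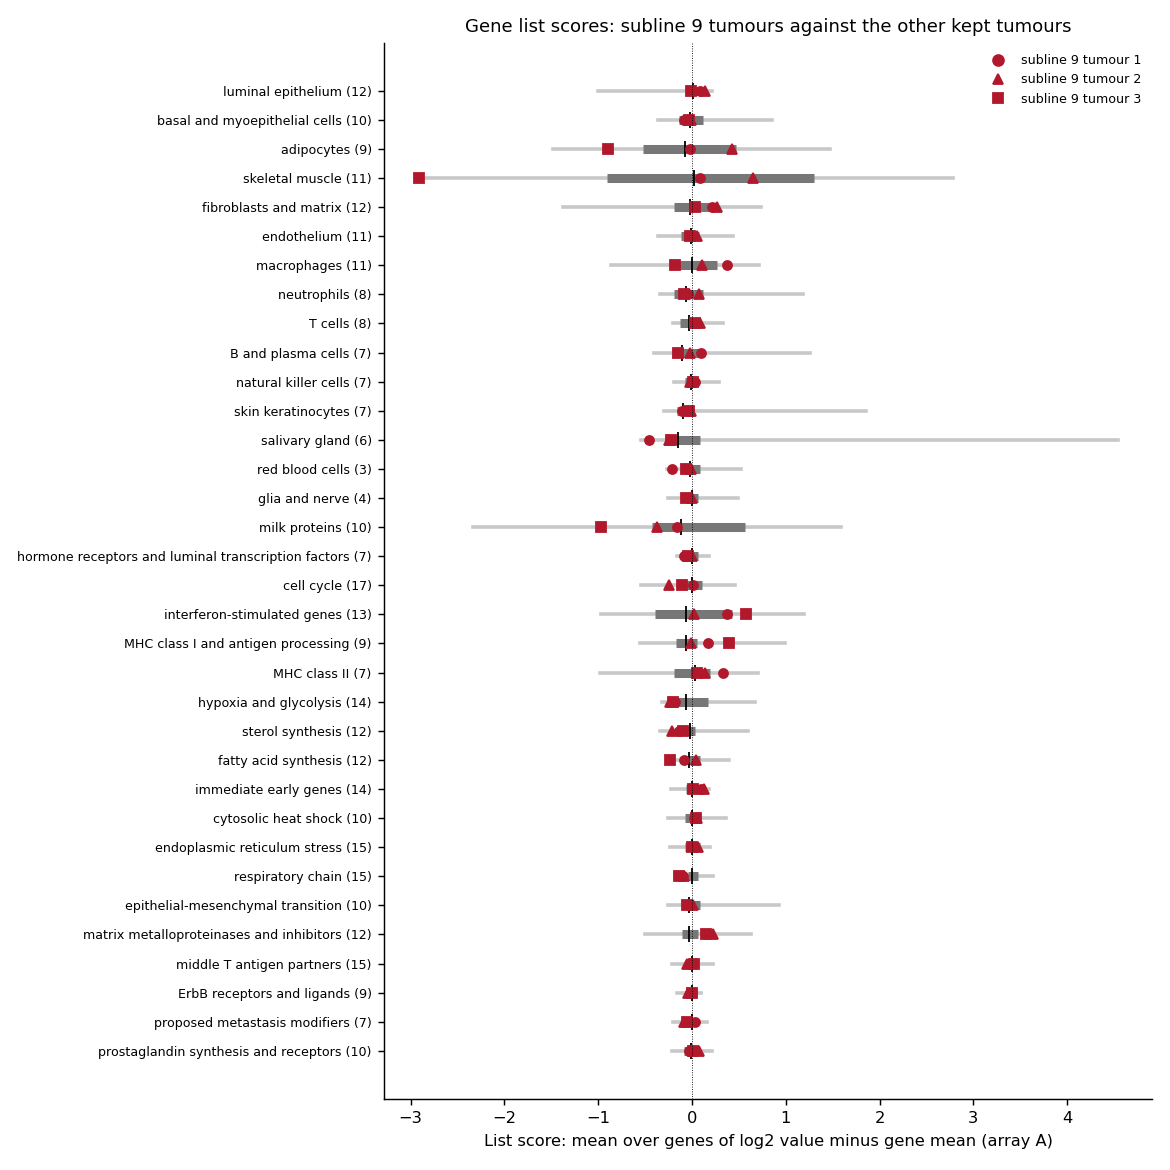
List score on array A (x axis, log2 value less the gene's mean over tumours, averaged over the list) for each gene list (y axis, number of genes in parentheses), with red symbols for the 3 subline 9 tumours. Grey bars span the lowest to the highest of the other kept tumours, dark bars the middle of them from the 25th to the 75th percentile, and a black tick is their median. Tumour 3 is below all others for skeletal muscle genes, and for fatty acid synthesis genes (-0.24, against a lowest of -0.21), and all other red symbols lie within the grey bars.

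Genes tied to the transgene and to metastasis stood near the other sublines. Of 16 partners of middle T antigen and their downstream kinases, 5 were above 0 and 11 below, with a median difference of -0.04 and 0 at an unadjusted p under 0.05. The smallest p belonged to Ppp2ca, the catalytic subunit of protein phosphatase 2A (11.67, 11.70 and 11.68 in subline 9, difference 0.13 ± 0.07). After median centring the numbers were 3 above and 13 below, and without tumour 1 they were 8 and 8, with a median of -0.02 and 2 genes at that p. Of 7 proposed metastasis modifiers, 6 were below 0 and 1 above, with differences from -0.16 for Rnaseh2c, a subunit of ribonuclease H2, to 0.16 for Ndn. Their median was -0.05, and without tumour 2 it was -0.01 with 3 above and 4 below. Sipa1, a Rap GTPase-activating protein, read between 7.89 and 8.22 (difference -0.08 ± 0.08). Over all 34 lists, 352 genes were measured, and 0 were called by limma. At an unadjusted p under 0.05, 6 were higher and 11 lower, together 4.83%, a share close to the 5.27% of all probe sets on array A.

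The 100 probe sets present on both arrays gave a check of the measurement in the same tumours. Differences of subline 9 had the same sign on both arrays for 80 of them, with a median disagreement of 0.04 (log2). The largest absolute difference among them on array A was 0.24, and 1 probe set was at an unadjusted p under 0.05 on both arrays. Across these probe sets, which share tumours and are not independent replicates, Pearson's r of the differences was 0.823.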

How the data were processed

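Total RNA of 56 tumours was measured on MOE430A and MOE430B arrays. The authors deposited log2 expression values made with RMA, per the submitters' processing notes. No RMA version or genome build is stated in the labels. RMA puts the arrays of a table on 1 scale, and the log2 values were used as deposited. Precision is limited by how many arrays there are.

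Each array's 64 control probe sets were left out. Gene symbols came from the platform annotation: 20380 probe sets of array A had 1 symbol, 691 several and 1555 none, against 14661, 245 and 7605 on array B. Probe sets with several symbols named no gene. RefSeq's GRCm38.p6 gene table served for names and for the order of genes. Set aside were 4 arrays A (all of subline 23 and tumour 3 of subline 25) and 3 arrays B (tumour 3 of sublines 11 and 25, tumour 2 of subline 23).

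The model in limma 3.58.1 (R 4.3.3; tables with Python 3.11.15) had 1 mean per subline. The contrast was subline 9 minus the unweighted mean of the other sublines, and P-values were adjusted over all probe sets of an array by Benjamini-Hochberg. The labels call tumours of a subline biological replicates. The script was tested on simulated data.

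Named genes were all called probe sets, the 10 genes per direction on array A and 5 on array B with the largest difference among probe sets with a mean of at least 6, an unadjusted p under 0.01 and all 3 tumours on the same side, up to 4 members per list by p, and 2-level genes. Lists used 1 probe set per gene, the brightest by mean on array A, or on array B where array A had none. Pef1, Gpnmb and probe set 1459953_at were named after their values were seen. The members, lists and criteria were chosen with earlier results of these data known. The limit of 10 tumours per level and the list values without each subline 9 tumour or with composition covariates were added after seeing the data.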

Additional observations from a re-analysis of the deposited data

How the results depend on the processing

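On array A the 1 call became 0 with all arrays, with the replicate block and with tumours 1 and 2 averaged as 1 sample. It became 2 with quantile normalization, and it ranged from 0 to 9 when each subline 9 tumour or each other subline was left out (9 without subline 2, 4 without subline 20). Array quality weights gave 648 calls on array A (360 higher, 288 lower) and 53 on array B (37 higher, 16 lower), where the weights of the subline 9 arrays were 1.32 to 2.21 (array A) and 0.57 to 1.81 (array B). The cause was not tested. The 0 calls on array B ranged from 0 to 2 (1 without subline 13, 2 without subline 27), and the replicate block gave 0. Same-numbered tumours of different sublines did not deviate together (median correlation 0.0007 on array A, 0.0156 on array B), so the numbers do not pair the samples. A filter on dim probe sets, median centring, a trended robust prior, pooled other tumours and subline as a random block gave the same numbers of calls, 1 and 0. None of the 44 named probe sets reversed under any alternative run, and 30 that had not passed were called with array quality weights. Genes named by size had been chosen with all 3 tumours of subline 9 on the same side. Leaving out or averaging these tumours could therefore not reverse them. Named genes said above to pass without another subline did so only in the runs given. With levels 4 pooled SDs apart, 2 levels were found at 401 probe sets of array A and 195 of array B. With 3 tumours in subline 9, leaving out 1 leaves a pair.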
